A study of Mus musculus with 4 samples.

Results

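The genes described here are the Wnt ligands, their Frizzled and Lrp receptors, the secreted Sfrp, Dkk and Wif1 antagonists, and the β-catenin effectors, measured in newborn mouse epidermis with and without the RNA helicase gene Skiv2l. They were chosen by symbol: every gene named Wnt, Fzd, Sfrp or Dkk followed by a number, together with Lrp5, Lrp6, Wif1, Axin2, Lef1, Tcf7, Tcf7l1, Tcf7l2 and Ctnnb1. This gave 46 of the 54752 gene identifiers in the tables, and 34 of the 46 exceeded 0.5 FPKM (fragments scaled to transcript length and sequencing depth) in at least 1 library. Total RNA was sequenced from the epidermis of 4 C57BL/6 pups at postnatal day 0, 2 Skiv2l ctl and 2 Skiv2l fl/fl K14-Cre. In the Skiv2l fl/fl K14-Cre pups both Skiv2l alleles are flanked by loxP sites. Cre recombinase is driven by the keratin 14 promoter, which is active in keratinocytes. Deletion was not measured here by cell type, so which other cells of the epidermis keep the gene is not known. The libraries of these pups are called deficient. The study counts littermates that are Skiv2l fl/fl, Skiv2l fl/+, or Skiv2l fl/+ with K14-Cre, as Skiv2l ctl, and the genotype of each control pup is not given in the sources used here, so a control may have carried Cre and 1 floxed allele.

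Wnt proteins are lipid-modified, secreted signals that bind Frizzled receptors at the cell surface. In the canonical branch, Wnt, Frizzled and the coreceptor Lrp5 or Lrp6 together block the destruction of β-catenin (Ctnnb1), which then enters the nucleus and works with the DNA-binding proteins Lef1, Tcf7, Tcf7l1 and Tcf7l2. Ligands such as Wnt5a and Wnt11 are best known for branches that do not use β-catenin. In skin, Wnt signals made by keratinocytes are needed to start hair follicles, and Lef1, Wnt10b and Dkk4 are known markers of the early follicle bud.

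The tissue matched its label. The basal keratinocyte gene Krt14 lay between 1736 and 7381 FPKM and the suprabasal Krt1 and Krt10 between 6378 and 13157 FPKM in the 4 libraries. The targeted gene, Skiv2l, whose product is the RNA-unwinding subunit of the Ski complex that feeds the cytoplasmic exosome, was measured at 19.3 and 19.1 FPKM in the controls, against 10.8 and 8.55 FPKM in the deficient ones, a log2 difference of -0.92 ± 0.12 (SE, n = 2 pups per group, limma adjusted p = 0.00368). Without Skiv2l ctl replicate 2, that difference was -0.93 with an adjusted p of 0.0529. All log2 differences are Skiv2l fl/fl K14-Cre minus Skiv2l ctl of log2(FPKM + 1), which understates the change of genes near 1 FPKM, whereas ratios are of mean FPKM. A gene was called at an adjusted p under 0.05 over the 13609 protein-coding genes tested. With 2 pups per group, 0.333 is the smallest two-sided p that exact permutation of the labels can give for 1 gene, and the limma p-values borrow the spread of all genes. The ratio of coverage to FPKM gave 5.843 to 6.274 aligned gigabases per library.

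On the deposited FPKM, 7 Wnt ligands, the receptor genes Fzd10, Fzd2 and Fzd3 and all 5 measured nuclear effectors were called lower in Skiv2l-deficient epidermis. Wnt5a, Wnt11 and Fzd1 were called higher. Of the lower ones, Wnt3a, Fzd2, Fzd3, Tcf7 and Tcf7l1 lost that call in both rescaled analyses below. Of the 34 members tested, 17 fell, 3 rose and 14 were not called. Among all genes tested, 25.4% were called lower and 8.99% higher, against 50.0% and 8.82% of the members. The median log2 difference was -0.48 over the members and -0.20 over all genes tested. In 24 members both Skiv2l fl/fl K14-Cre libraries lay below both controls, and in 5 both lay above, compared with 55.3% and 18.2% of all genes. Of the 34 members, 2 (Dkk4 and Wnt5b) passed the 0.5 FPKM filter through the control libraries alone, so the filter itself favored a lower value in these 2. Without them 16 members were called lower, and the median log2 difference was -0.48. The median of all genes was not at 0, and after the libraries were brought to a common median, which moved it to -0.03, 12 members were called lower and 4 higher (35.3% and 11.8%, against 11.9% and 13.9% of all genes). With quantile normalization 12 were lower and 3 higher (35.3% and 8.82%, against 14.1% and 12.4% of all genes). The same scaling moved the share of higher calls among all calls from 26.1% to 53.9% (median) and 46.8% (quantile). The 12 members lower in all 3 analyses were Wnt3, Wnt6, Wnt7a, Wnt7b, Wnt10b, Wnt16, Fzd10, Dkk4, Ctnnb1, Lef1, Tcf7l2 and Axin2, and Wnt5a, Wnt11 and Fzd1 were higher in all 3. Exons of Lef1, Wnt7b, Wnt5a, Tcf7l1, Axin2 and Sfrp2 overlap antisense transcripts, and without knowing whether strand was used in counting, the reads of the 2 strands cannot be told apart. In whole epidermis, fewer cells of a type and less RNA per cell cannot be told apart.

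**Figure D1:**
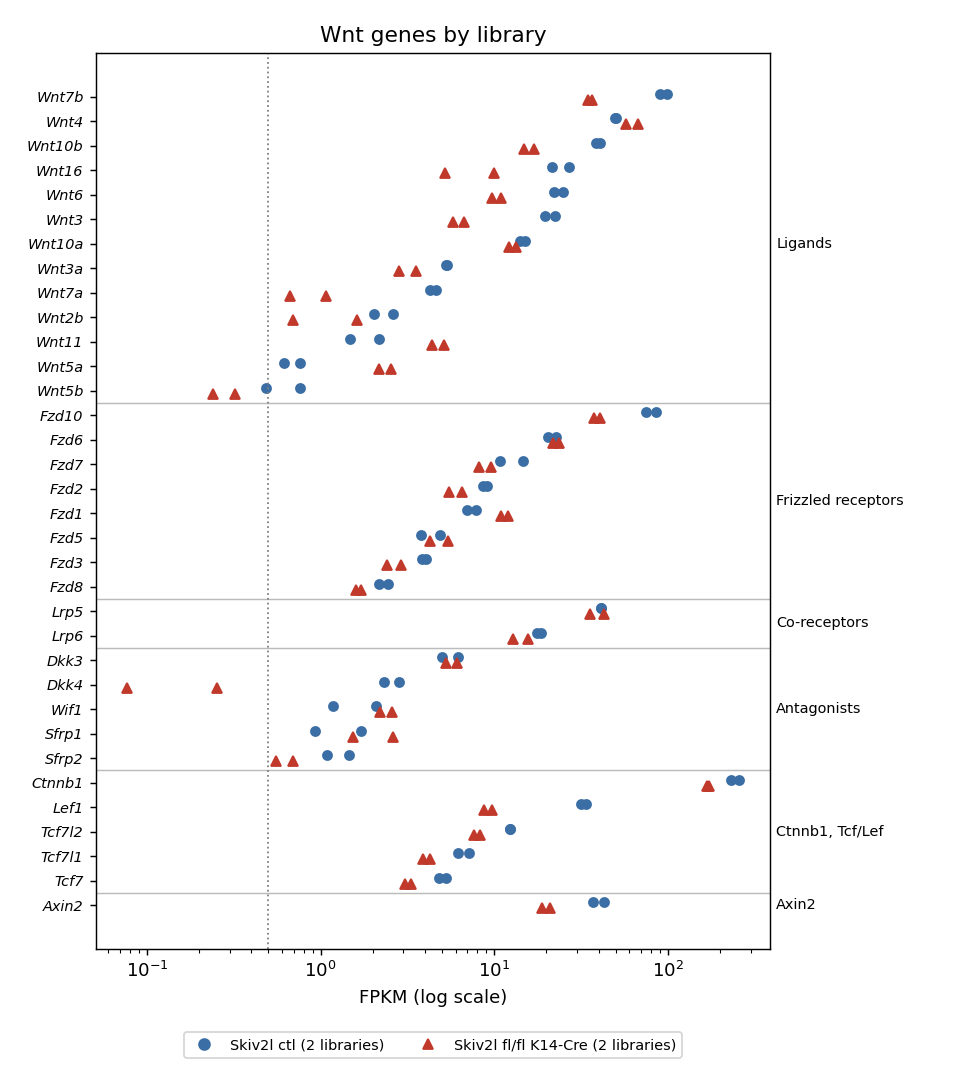
FPKM of the members over 0.5 FPKM in at least 1 library, on a log axis, with 1 point per library and the control and Skiv2l fl/fl K14-Cre libraries in separate colors. The 2 Skiv2l fl/fl K14-Cre points of Wnt7b, Lef1 and Dkk4 lie below both control points, those of Wnt5a and Wnt11 lie above, and those of Fzd5 overlap the range of the controls.

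The ligands were led by Wnt7b, which in the controls was the most abundant of the 19 Wnt genes on the FPKM scale. Wnt7b (ENSMUSG00000022382.15, GRCm38 chr15:85535437-85582473, minus strand), a canonical ligand made by epidermal keratinocytes, measured 98.7 and 89.6 FPKM in the controls, against 36.8 and 34.5 FPKM in the deficient libraries. Its level was thus lower in both deficient pups than in either control, with a mean of 94.1 ± 6.41 against 35.7 ± 1.59 FPKM (SD, n = 2 each), a 2.64-fold lower mean (log2 difference -1.37 ± 0.09, adjusted p = 0.000355). Its close relative Wnt7a measured 4.63, 4.25, 1.08 and 0.666 FPKM in control 1, control 2 and the 2 deficient libraries in that order. Wnt7a fell by 1.55 ± 0.15 on the log2 scale (adjusted p = 0.00134), and its mean was 5.09-fold lower.

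Wnt3 (chr11:103774150-103817957, plus strand), another canonical ligand, measured 22.3 and 19.7 FPKM in the controls, against 5.76 and 6.69 FPKM in the deficient libraries. The groups did not overlap, and the mean was 3.38-fold lower (log2 difference -1.61 ± 0.12, adjusted p = 0.000493). Wnt10b (chr15:98770712-98778150, minus strand), which marks the follicle bud, measured 38.8 and 40.9 FPKM against 14.9 and 17.0 FPKM. Both deficient pups were below both controls, and the fall was 2.49-fold (-1.27 ± 0.10, adjusted p = 0.000635). Wnt16 (chr6:22288227-22298522, plus strand) measured 21.6 and 26.9 FPKM against 10.03 and 5.24 FPKM (-1.60 ± 0.27, adjusted p = 0.00732). The deficient pups differed between themselves more for Wnt16 than for Wnt3 or Wnt10b, and without Skiv2l ctl replicate 2 the Wnt16 difference was -1.45 with an adjusted p of 0.0802. Wnt3a, which lies beside Wnt9a, measured 5.29 and 5.36 FPKM against 2.83 and 3.57 FPKM (-0.60 ± 0.13, adjusted p = 0.0178). That call did not hold with scaled libraries (adjusted p = 0.0669 with the median and 0.0887 with quantiles) nor without either control (0.1099 and 0.123).

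Wnt6 and Wnt10a are neighbors on chromosome 1, 6.2 kb apart and read from the same strand. Wnt6 (chr1:74771892-74785322) measured 24.8 and 22.2 FPKM in the controls, against 9.73 and 10.9 FPKM in the deficient libraries, a 2.27-fold lower mean (-1.11 ± 0.11, adjusted p = 0.00121). Wnt10a, in which loss-of-function alleles are known to cause tooth, hair and skin defects, measured 15.1 and 14.1 FPKM against 12.2 and 13.3 FPKM. Its log2 difference was -0.19 (95% interval -0.42 to 0.05, adjusted p = 0.178), so its groups were separate but close, and the interval did not reach the change of Wnt6. The difference between the neighboring genes was not itself tested.

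Wnt4 (chr4:137277489-137299726, plus strand), a ligand of the basal layer, did not fall with the other abundant ligands. It measured 49.8 and 50.1 FPKM in the controls, against 57.1 and 67.4 FPKM in the deficient libraries (0.31, 95% interval 0.06 to 0.56, adjusted p = 0.0612). Both deficient libraries were above both controls, but the test did not pass. It passed after scaling to the same median (0.52, adjusted p = 0.0184) and without Skiv2l fl/fl K14-Cre replicate 1 (0.43, adjusted p = 0.0207), and not with quantile normalization (adjusted p = 0.0522).

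As a share of the summed FPKM of the 19 ligand genes, Wnt7b made up 34.4% and 32.2% in the controls, against 22.9% and 20.6% in the deficient libraries. Wnt4 made up 17.3% and 18.0% of the sum in the controls, against 35.5% and 40.3% in the deficient libraries. The sum itself was 287 and 279 FPKM in the controls, against 161 and 167 FPKM in the deficient pups. The order of the ligands by mean FPKM therefore changed at its head, from Wnt7b, Wnt4, Wnt10b in the controls to Wnt4, Wnt7b, Wnt10b, and within each group no library of 1 of these 3 genes overlapped those of the next. Below them Wnt16, Wnt6 and Wnt3 overlapped in the controls, and Wnt10a, at rank 7 in the controls, stood at rank 4 in the deficient libraries. Wnt11 moved from rank 11 to 8 and Wnt5a from rank 12 to 10.

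**Figure D2:**
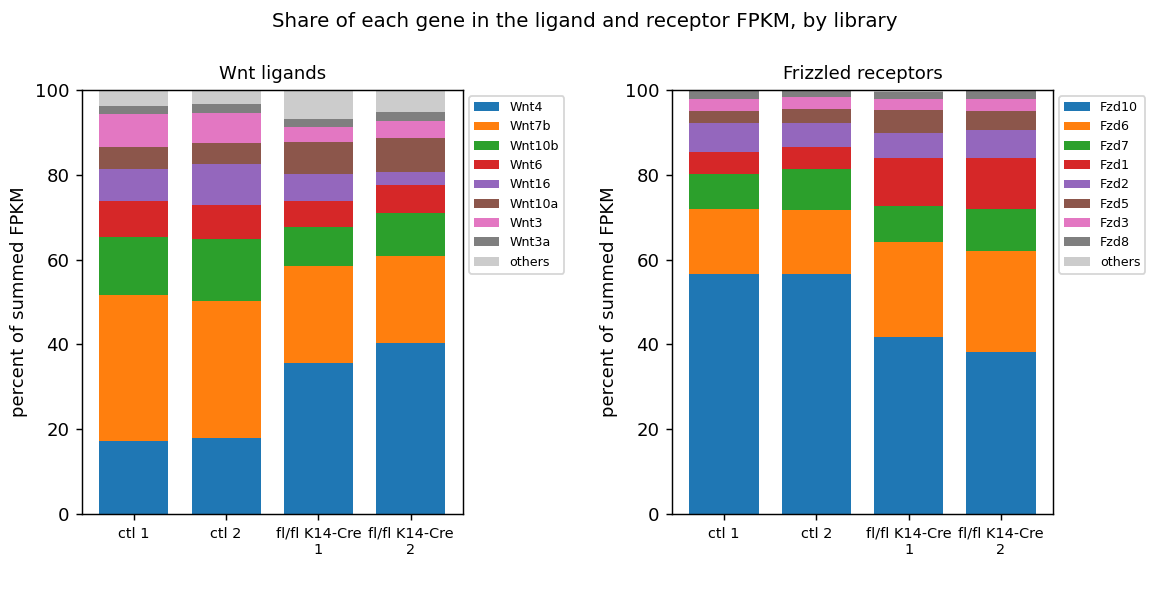
Share of the summed FPKM (percent) that each gene made up in each of the 4 libraries, for the Wnt ligands and for the Frizzled receptors. Wnt4 takes 17.3% and 18.0% in the controls, against 35.5% and 40.3% in the deficient libraries, and Fzd10 takes 56.5% and 56.6% against 41.7% and 38.2%.

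Wnt5a and Wnt11 were the ligands that rose. Wnt5a (ENSMUSG00000021994.15, chr14:28504750-28527448, plus strand) measured 0.614 and 0.766 FPKM in the controls, against 2.54 and 2.18 FPKM in the deficient libraries. It was thus low in both controls and 3.42-fold higher on average in the deficient pups (0.99 ± 0.14, adjusted p = 0.00422). Wnt11 (ENSMUSG00000015957.12, chr7:98835112-98855195, plus strand) measured 2.17 and 1.47 FPKM in the controls, against 5.17 and 4.36 FPKM in the deficient libraries. The groups did not overlap, and the mean was 2.62-fold higher (1.04 ± 0.16, adjusted p = 0.00609). Without Skiv2l ctl replicate 2 the Wnt11 difference was 0.86 with an adjusted p of 0.0598. Even after the rise, Wnt5a at 2.36 ± 0.253 and Wnt11 at 4.76 ± 0.572 FPKM (SD, n = 2) stayed well below Wnt4 at 62.2 ± 7.31 FPKM.

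Wnt2b measured 2.60, 2.03, 1.62 and 0.695 FPKM and Wnt5b 0.485, 0.760, 0.323 and 0.242 FPKM in control 1, control 2 and the deficient libraries. Neither was called (log2 differences -0.65 and -0.34, adjusted p = 0.0722 and 0.149), although both deficient libraries lay below both controls for each. Without Skiv2l fl/fl K14-Cre replicate 1, Wnt2b was called at -0.96 (adjusted p = 0.0186). The other 6 ligand genes (Wnt1, Wnt2, Wnt8a, Wnt8b, Wnt9a and Wnt9b) stayed under 0.5 FPKM in all 4 libraries and were not tested. Among them Wnt9a was read at 0.0523 and 0.0416 FPKM in the controls, against 0.374 and 0.463 FPKM in the deficient libraries, the highest value of any untested member. With no filter on low values Wnt9a was called higher (0.44, adjusted p = 0.0149), the only one of the 11 untested members with a value above 0 that was called there.

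Among the receptors, Fzd10 fell and Fzd1 rose. Fzd10 (ENSMUSG00000081683.5, chr5:128600844-128604093, plus strand) measured 75.2 and 85.5 FPKM in the controls, against 40.5 and 37.6 FPKM in the deficient libraries. It was the most abundant Frizzled gene in both groups, with a mean 2.06-fold lower in the deficient pups (-1.02 ± 0.10, adjusted p = 0.00121). Fzd1 (ENSMUSG00000044674.6, chr5:4753839-4758035, minus strand) measured 6.96 and 7.91 FPKM in the controls, against 11.02 and 12.0 FPKM in the deficient libraries. Its mean was 1.55-fold higher with no overlap between the groups (0.57 ± 0.11, adjusted p = 0.0118), and without control 1 or control 2 the adjusted p was 0.0996 and 0.0664, with differences of 0.49 and 0.65.

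Fzd6, which has a known role in the orientation of hair follicles, measured 20.5 and 22.8 FPKM against 21.8 and 23.5 FPKM, and the groups overlapped (0.06, 95% interval -0.17 to 0.30, adjusted p = 0.622). Fzd10 accordingly made up 56.5% and 56.6% of the summed Frizzled FPKM in the controls, against 41.7% and 38.2% in the deficient libraries. Fzd6 made up 15.4% and 15.1% against 22.5% and 23.9%, and Fzd1 5.23% in both controls against 11.4% and 12.2%. The summed Frizzled FPKM was 133 and 151 in the controls, against 97.0 and 98.3 in the deficient libraries.

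Fzd2 measured 9.05 and 8.59 FPKM against 5.51 and 6.51 FPKM (-0.49 ± 0.12, adjusted p = 0.0226), and Fzd3 measured 3.86 and 4.05 FPKM against 2.43 and 2.90 FPKM (-0.44 ± 0.13, adjusted p = 0.0406). Both calls were lost under median scaling (adjusted p = 0.122 for Fzd2 and 0.168 for Fzd3), and also without control 1, control 2 or Skiv2l fl/fl K14-Cre replicate 1 (adjusted p = 0.147, 0.123 and 0.0507 for Fzd2 and 0.156, 0.197 and 0.1003 for Fzd3). With quantile normalization the limma adjusted p was 0.117 for Fzd2 and 0.269 for Fzd3, so neither was called there. Fzd7 (10.9, 14.6, 8.18 and 9.53 FPKM) and Fzd8 (2.46, 2.17, 1.60 and 1.70 FPKM) were not called (-0.47 and -0.32, adjusted p = 0.0607 and 0.0992). Fzd5 measured 3.79 and 4.88 FPKM in the controls, against 5.41 and 4.28 FPKM in the deficient libraries, and the groups overlapped (0.13 ± 0.16, adjusted p = 0.533). Fzd4 and Fzd9 stayed under the filter.

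The coreceptor genes Lrp5 and Lrp6, whose products carry the signal from Wnt and Frizzled into the cell, were not called. Lrp5 measured 41.5 and 41.3 FPKM in the controls, against 35.6 and 42.8 FPKM in the deficient libraries, and the groups overlapped (-0.08, 95% interval -0.34 to 0.18, adjusted p = 0.569). Lrp6 measured 18.7 and 17.5 FPKM against 12.8 and 15.7 FPKM (-0.33, 95% interval -0.62 to -0.05, adjusted p = 0.0731). Lrp6 was called without Skiv2l fl/fl K14-Cre replicate 2 (-0.47, adjusted p = 0.0276).

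Of the 9 secreted antagonists, 5 were tested and 1, Dkk4, was called lower, against 25.4% of all genes. That gene passed the 0.5 FPKM filter through the controls alone, which favors a lower call. Dkk4 (chr8:22624043-22627547, plus strand), a Dickkopf protein that binds the Lrp coreceptors and is itself a known Wnt target in the follicle bud, measured 2.83 and 2.32 FPKM in the controls, against 0.254 and 0.0767 FPKM in the deficient libraries. Its mean was 15.6-fold lower (-1.62 ± 0.16, adjusted p = 0.00126), and the log2 difference was -3.41 with a pseudocount of 0.1. Dkk3 (4.99, 6.22, 5.28 and 6.09 FPKM), Wif1 (1.19, 2.10, 2.59 and 2.20 FPKM) and Sfrp1 (0.933, 1.71, 1.54 and 2.62 FPKM) had log2 differences of 0.02, 0.38 and 0.40, none of them called (adjusted p = 0.919, 0.169 and 0.222). The control values of Wif1 and Sfrp1 themselves spread widely, and the groups of Dkk3 and Sfrp1 overlapped. Sfrp2 measured 1.09 and 1.46 FPKM against 0.696 and 0.553 FPKM (-0.48 ± 0.15, adjusted p = 0.0554). Dkk1 had 0 FPKM in all 4 libraries, and Dkk2, Sfrp4 and Sfrp5 stayed under the filter.

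All 5 nuclear effectors were called lower, against 25.4% of all genes, with log2 differences from -1.71 to -0.52. Lef1 fell most of them. Lef1 (ENSMUSG00000027985.14, chr3:131110471-131224356, plus strand), the DNA-binding partner of β-catenin in hair follicle precursors, measured 31.5 and 33.6 FPKM in the controls, against 9.74 and 8.76 FPKM in the deficient libraries. The replicates were close in both groups, and the mean was 3.52-fold lower (-1.71 ± 0.10, adjusted p = 0.000235). Ctnnb1, which encodes β-catenin and also serves cell adhesion, measured 232 and 257 FPKM against 172 and 169 FPKM, a 1.44-fold lower mean (-0.52 ± 0.09, adjusted p = 0.00782). Without Skiv2l ctl replicate 2 the Ctnnb1 difference was -0.45 with an adjusted p of 0.0725.

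The other Tcf genes moved less than Lef1. Tcf7l2 measured 12.3 FPKM in both controls and 7.61 and 8.25 FPKM in the deficient libraries (-0.57 ± 0.10, adjusted p = 0.00791). Tcf7l1, which is known mainly as a repressor in stem cells of the follicle, measured 7.12 and 6.19 FPKM against 3.90 and 4.30 FPKM (-0.58 ± 0.12, adjusted p = 0.0145). Tcf7 measured 4.84 and 5.30 FPKM against 3.33 and 3.07 FPKM (-0.53 ± 0.12, adjusted p = 0.0176). For each of the 3 the groups did not overlap. The calls of Tcf7l1 and Tcf7 were lost with median scaling (adjusted p = 0.0603 and 0.0626) and quantile normalization (0.0710 and 0.0867). All 3 Tcf calls were lost without control 1 or control 2 (adjusted p = 0.0761 and 0.0824 for Tcf7l2, 0.1201 and 0.0765 for Tcf7l1, and 0.0902 and 0.136 for Tcf7).

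Axin2 (ENSMUSG00000000142.15, chr11:108920349-108950783, plus strand), a scaffold of the β-catenin destruction complex and a widely used readout of canonical signaling, measured 37.2 and 43.1 FPKM in the controls, against 18.8 and 21.0 FPKM in the deficient libraries. Both deficient pups were thus well below both controls, and the mean was 2.02-fold lower (-0.98 ± 0.11, adjusted p = 0.00198).

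**Figure D3:**
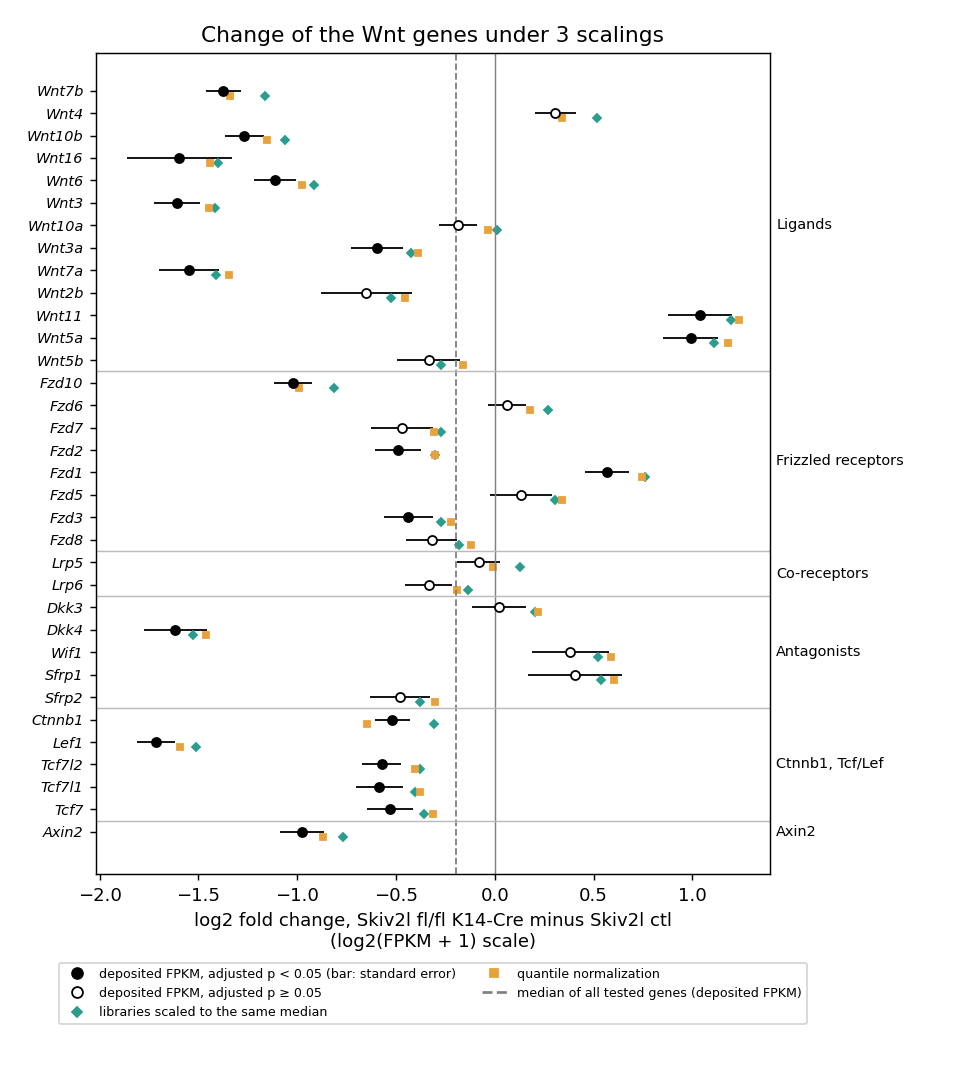
Log2 difference in log2(FPKM + 1), Skiv2l fl/fl K14-Cre minus Skiv2l ctl, for each tested member, with bars for the standard error of the limma fit. Filled circles mark members that were called and open circles those that were not. Diamonds and squares mark the differences after median scaling and quantile normalization. The dashed line is the median of all tested genes on the deposited FPKM. Lef1 (-1.71) and Dkk4 (-1.62) lie at the low end, Wnt11 (1.04) and Wnt5a (0.99) at the high end, and Fzd6 (0.06), Lrp5 (-0.08) and Dkk3 (0.02) near 0.

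The stretches just upstream of Lef1, Axin2 and Wnt11 are shown because Lef1 and Axin2 are a nuclear effector and a readout of the pathway that fell, and Wnt11 is a ligand that rose. Each is the 250 bases before the RefSeq transcript start on GRCm38.p6, plus strand, 5′ to 3′. They were read from chr3:131110047-131110296 (Lef1, the most upstream of its 4 listed starts), chr11:108920099-108920348 (Axin2) and chr7:98834862-98835111 (Wnt11, the more upstream of its listed starts). Capitals mark the core CTTTG of the motif that Tcf and Lef proteins bind, or its reverse complement CAAAG.
Lef1: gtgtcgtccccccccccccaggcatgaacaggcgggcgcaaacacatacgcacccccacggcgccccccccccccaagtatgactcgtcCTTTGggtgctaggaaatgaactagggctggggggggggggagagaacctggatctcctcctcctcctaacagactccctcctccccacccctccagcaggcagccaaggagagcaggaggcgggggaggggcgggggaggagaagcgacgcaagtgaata
Axin2: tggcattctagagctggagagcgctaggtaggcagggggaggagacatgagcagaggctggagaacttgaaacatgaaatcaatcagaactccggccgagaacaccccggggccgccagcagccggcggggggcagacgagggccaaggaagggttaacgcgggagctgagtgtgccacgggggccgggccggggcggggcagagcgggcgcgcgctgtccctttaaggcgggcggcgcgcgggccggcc
Wnt11: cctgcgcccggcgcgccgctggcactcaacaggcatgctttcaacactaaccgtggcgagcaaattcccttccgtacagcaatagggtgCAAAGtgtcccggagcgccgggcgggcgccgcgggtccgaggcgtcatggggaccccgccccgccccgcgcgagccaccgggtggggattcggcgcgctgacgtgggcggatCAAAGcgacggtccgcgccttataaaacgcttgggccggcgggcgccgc
The Lef1 window held 1 core, beginning 161 bases before the start, the Axin2 window held 0, and the Wnt11 window held 2, beginning 161 and 49 bases before the start. The core nearer the Wnt11 start was part of ATCAAAG, the reverse complement of the longer form CTTTGAT. The core was common: 48.6% of 32851 such windows of all genes held it on either strand, against 20 of the 41 windows (48.8%) of the 32 members with a listed start. The longer form, CTTTGAA or CTTTGAT, occurred in 7.48% of all windows and in 3 of the 41 (7.32%). Of 19 windows from 13 members called lower, 9 held the core and 0 the longer form, and of 3 windows from members called higher, 2 held the core and 1 the longer form. Every longer form contains the core, and windows of 1 gene can overlap, so these counts are a description of letters in the window.

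Around these genes, 71 other genes of the pathway were followed, of which 63 were tested, 26 fell, 3 rose and 34 were not called (41.3% lower and 4.76% higher, against 25.4% and 8.99% of all genes, with a median log2 difference of -0.20 in both). Under median scaling, 18 were lower and 6 higher (28.6% and 9.52%, against 11.9% and 13.9% of all genes). Of the genes that make and release Wnt, Porcn, which attaches the lipid, measured 4.96 and 5.09 FPKM in the controls, against 9.20 and 8.19 FPKM in the deficient libraries and rose (0.69, adjusted p = 0.00620), a call that was lost without control 1 or control 2 (adjusted p = 0.0652 and 0.0680). Wls, the carrier that brings Wnt to the cell surface, measured 41.7 and 46.8 FPKM against 31.5 and 30.9 FPKM and fell (-0.49, adjusted p = 0.0107), but not under median scaling or without control 2 (adjusted p = 0.0596 and 0.0924). Notum, an enzyme that removes the lipid and is a target of the pathway, measured 4.79 and 4.52 FPKM against 0.672 and 0.367 FPKM and fell (-1.90, adjusted p = 0.000662).

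The R-spondins, which raise Frizzled levels at the membrane by acting through Lgr receptors on the ubiquitin ligases Znrf3 and Rnf43, were under the filter for all 4 Rspo genes. Of the 5 tested genes of that axis, 4 fell. Znrf3 measured 30.0 and 31.1 FPKM against 16.4 and 18.2 FPKM, Rnf43 18.2 and 18.5 FPKM against 7.64 and 12.0 FPKM, and Lgr6 34.1 and 39.0 FPKM against 20.2 and 22.2 FPKM. The groups did not overlap for these 3 genes (log2 differences -0.79, -0.87 and -0.75, adjusted p = 0.00241, 0.0171 and 0.00387). Lgr4 was also called (-0.46), and Lgr5 had a difference of -0.02 (adjusted p = 0.939). The count of 4 of 5, against 25.4% of all genes, was 2 under median scaling, 2 with no filter on low values, 2 without control 1 and 1 without control 2. Without control 2 the adjusted p was 0.0520 for Lgr6, 0.116 for Rnf43 and 0.240 for Lgr4, and Znrf3 kept its call.

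Of 5 other tested inhibitors at the membrane, 4 were called lower, against 25.4% of all genes. Kremen2, which works with Dickkopf proteins to remove Lrp6, measured 42.6 and 38.7 FPKM against 12.6 and 12.7 FPKM (-1.60, adjusted p = 0.000235). Apcdd1, which binds Wnt and Lrp5, measured 85.9 and 93.4 FPKM against 39.0 and 41.9 FPKM (-1.13, adjusted p = 0.000655). Sostdc1, a secreted inhibitor of Wnt and Bmp signals around the follicle bud, measured 33.4 and 44.5 FPKM against 17.4 and 17.5 FPKM (-1.10, adjusted p = 0.00308). Kremen1 was the fourth (-0.66), and Tpbg was not called.

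Of the 4 receptors outside the Frizzled family, 3 were called lower, against 25.4% of all genes. Ror1, a receptor for Wnt5a, fell from 7.0001 and 6.97 FPKM to 2.05 and 2.66 FPKM (-1.26, adjusted p = 0.00160), and Ryk (-0.50) and Ptk7 (-0.39) were also called. Ror1 alone of these 3 was called under median scaling or without control 2, where the adjusted p was 0.0564 and 0.0872 for Ryk and 0.199 and 0.151 for Ptk7. Ror2, also a receptor for Wnt5a, stayed under 0.54 FPKM in all libraries and was not called. Of 8 tested genes of planar cell polarity, which orients hairs across the skin, 3 fell and 1 rose, against 25.4% and 8.99% of all genes. Celsr1 measured 61.8 and 60.1 FPKM against 33.1 and 32.2 FPKM (-0.88), Vangl2 had a log2 difference of -0.78, Prickle1 of -0.99 and Prickle2, the gene that rose, of 0.69. The 3 lower calls held under every alternative, and that of Prickle2 was lost without control 1 or control 2 (adjusted p = 0.0926 and 0.0709).

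Of 19 Dishevelled and destruction-complex genes, 2 fell (Amer1, -0.74, and Dact3, -0.61) and 0 rose, with a median log2 difference of -0.11. For comparison here and with the cofactors below, 25.4% of all genes were called lower and 8.99% higher. Dvl1, Axin1, Apc, Gsk3b and Csnk1a1 were among the 17 not called. Both calls were lost without control 2 (adjusted p = 0.0766 and 0.0539). Of 12 nuclear cofactors, 5 fell (Bcl9, Bcl9l, Pygo1, Aes and Chd8) and 1 rose, and without control 2 the calls left were the falls of Bcl9 and Aes. Bcl9, which bridges β-catenin to Pygo proteins, measured 20.02 and 21.7 FPKM against 8.58 and 7.01 FPKM (-1.32, adjusted p = 0.00105). Jup, the β-catenin relative γ-catenin of desmosomes, measured 907 and 952 FPKM against 1336 and 1366 FPKM and was called higher (0.54, adjusted p = 0.00778). That call was lost with no filter (adjusted p = 0.0680) and without control 1 or control 2 (0.0626 and 0.0622), and with quantile normalization the Jup difference was 0.03 (adjusted p = 0.795).

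Of 7 common target genes, 3 fell, against 25.4% of all genes, and 4 were not called. Sp5, a transcription factor induced by Wnt in many tissues, measured 6.34 and 7.52 FPKM in the controls, against 1.36 and 0.473 FPKM in the deficient libraries (-2.08, adjusted p = 0.00206). Tnfrsf19, known as Troy, measured 53.5 and 50.2 FPKM against 17.0 and 17.1 FPKM (-1.55, adjusted p = 0.000208). Nkd1, a feedback inhibitor, measured 3.66 and 3.53 FPKM against 1.41 and 1.06 FPKM (-1.05). Ccnd1 and Myc, which many other signals also drive, had differences of -0.20 and 0.16 and were not called.

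**Figure D4:**
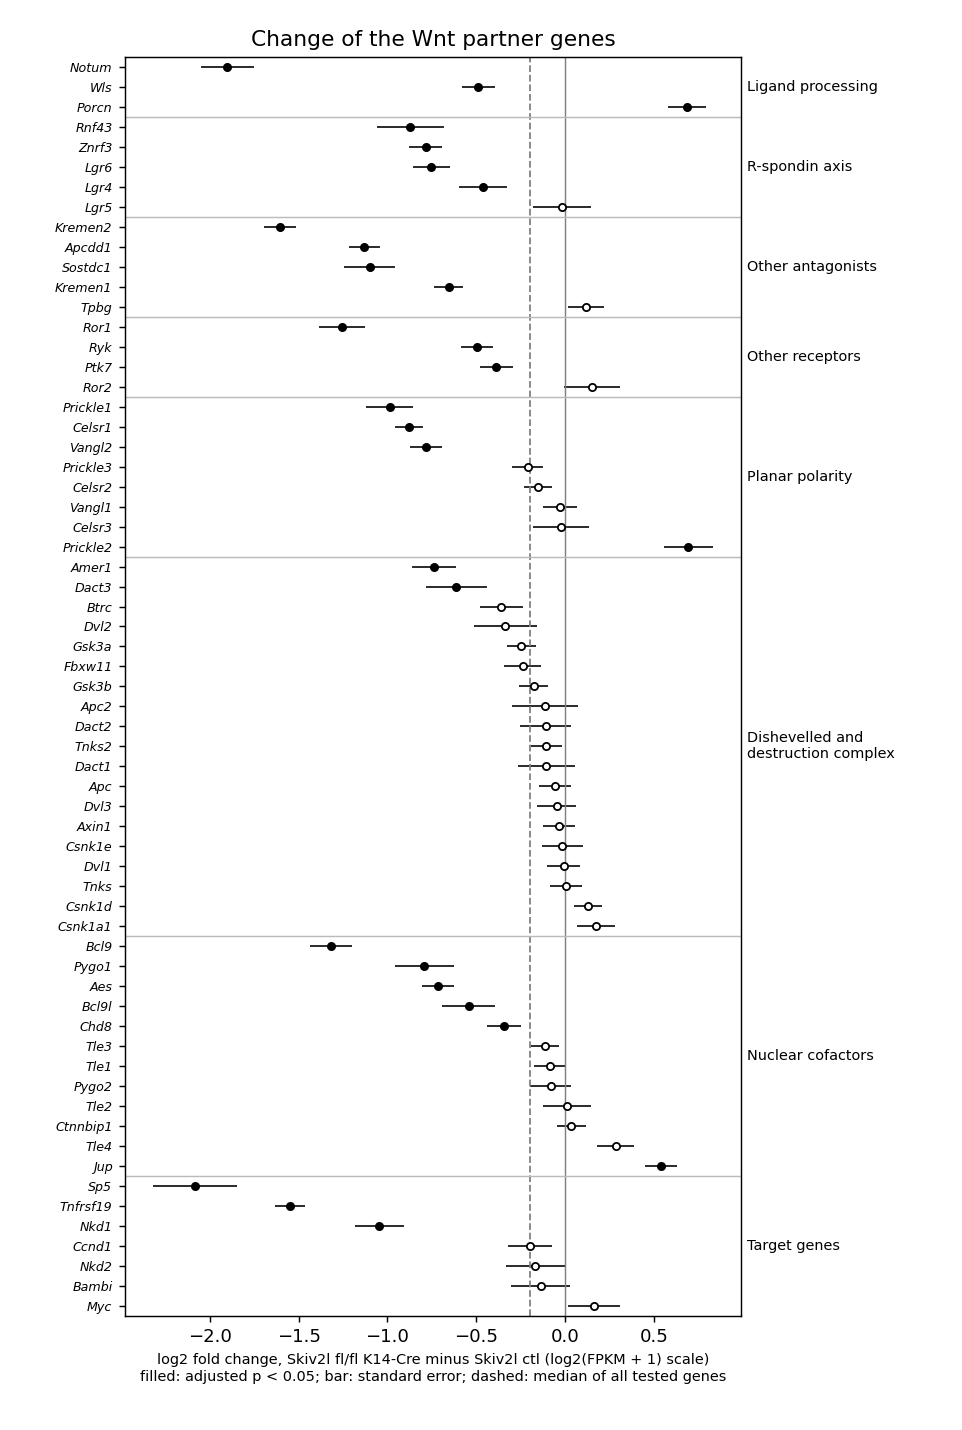
Log2 difference in log2(FPKM + 1), Skiv2l fl/fl K14-Cre minus Skiv2l ctl, for the tested partner genes grouped by role, with bars for the standard error. Each gene has 1 point, filled if it was called and open if not. The dashed line is the median of all tested genes. The genes of the destruction complex have a median of -0.11, and Sp5 (-2.08), Notum (-1.90) and Kremen2 (-1.60) lie far below.

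Several markers of the hair follicle bud fell beside these genes. Of 12 placode and matrix genes, 11 were tested, 6 were called lower and 1 (Krt17) higher, against 25.4% and 8.99% of all genes, Sostdc1 being in both this list and the inhibitors above, with Shh at 11.7 and 12.6 FPKM in the controls, against 2.39 and 2.82 FPKM in the deficient libraries (-1.87) and Edar at 15.0 and 17.6 FPKM against 3.99 and 3.91 FPKM (-1.80). The other 4 tested genes of the list were not called, among them Sox9 (-0.16) and Krt25 (-0.01), and the count of 6 was 4 under median or quantile scaling and 3 without control 2. Without Krt17, an abundant keratin also made by activated keratinocytes, the list summed to 131 and 179 FPKM in the controls, against 79.2 and 82.4 FPKM in the deficient libraries, and with Krt17 to 629 and 697 FPKM against 1561 and 1384 FPKM. The part of these cells in the fall of Lef1, Wnt10b, Dkk4 and the other members was not tested.

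The lists of other cell types did not share 1 direction. The counts below stand against 25.4% lower and 8.99% higher calls among all genes. Dermal papilla genes summed to 8.97 and 10.8 FPKM in the controls, against 8.51 and 7.57 FPKM in the deficient libraries (4 of 8 tested, 2 lower, 1 higher). Merkel cell genes summed to 5.22 and 6.51 FPKM against 2.28 and 4.93 FPKM. All 5 had log2 differences below 0, as had 9779 of the 13609 genes tested, and none was called. Of these 5, Isl1 and Krt20 passed the 0.5 FPKM filter through the controls alone, which favors a lower value. Dermal fibroblast genes summed to 169 and 165 FPKM against 67.8 and 85.8 FPKM, mostly Dcn and Postn, which were 2 of the 3 genes called lower among 6 tested, while Col1a1 stayed under 1.3 FPKM in all libraries. Leukocyte genes summed to 27.9 and 34.0 FPKM against 15.0 and 13.7 FPKM (3 of 5 tested genes lower), and melanocyte genes to 58.2 and 64.6 FPKM against 60.8 and 75.7 FPKM (1 of 7 higher). Endothelial genes summed to at most 0.7502 FPKM, with Emcn at 0 in all libraries, and 0 of the 1 tested was called. Of 7 basal keratinocyte genes 2 rose (Krt14 and Itgb4) and 1 fell (Krt15), and of 6 suprabasal genes 2 fell. The sums of the basal list were 4729 and 4891 FPKM in the controls against 9798 and 9795 FPKM. Those sums were led by Krt14, at 1736 and 1812 FPKM in the controls against 7381 and 7312 FPKM. Of the 7 basal genes, 5 had log2 differences below 0 and 2 above, with a median of -0.08. The sums of the suprabasal list were 28193 and 29292 FPKM against 19620 and 22718 FPKM. The part of any of these lists in the members' differences was not tested.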

How the data were processed

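Total RNA of P0 epidermis from 4 pups was sequenced, and the authors ran the reads through an RNA-seq workflow of their institution on GRCm38 per the labels. The aligner, its version and whether counting used strand are not given in the sources used here. The FPKM values deposited by the authors, which express fragments relative to transcript length and depth, were used for all results. The deposited TPM values, scaled to 1 sum per library, served as an alternative. The deposited coverage signal, mean read depth over a gene, was used for depth alone, as its ratio to FPKM. Counts were not used here and no counting interval is printed, and 2 pups per genotype limit the precision.

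Repeated identifiers had their FPKM added up. Coordinates matched GENCODE M21 for 54029 of 54752 identifiers. The 13609 of 21921 protein-coding genes over 0.5 FPKM in at least 1 library, the study's own filter, entered a two-sided limma test (version 3.58.1, R 4.3.3, lmFit and trended eBayes) of log2(FPKM + 1). P-values were adjusted by Benjamini and Hochberg over all these genes, with a threshold of 0.05. The fit was tested on simulated data with normal noise and the spreads of these same libraries, which does not show how it performs on real pups. Groups came from the genotype labels. The alternatives were to use a pseudocount of 0.1, to filter at FPKM over 1 in at least 2 libraries, and to use no filter, TPM, median or quantile scaling, a replicate block, no trend, or all libraries but 1. Every member was named, with values where it passed the filter; of the other pathway genes, those called could be named, with values for up to the 3 largest changes per direction and role; of each marker list, its sums and up to 3 genes. Exceptions named without that rule, after their values were seen, were the pathway genes that were not called and Sox9 and Krt25. The members, the lists and the tests were chosen with earlier results of these data known. The marker lists and the pathway list were written from general knowledge of these cells and this pathway. Shared 75-base stretches and exon overlaps were counted on the GENCODE M21 transcripts. Promoter windows came from RefSeq (GRCm38.p6).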

Additional observations from a re-analysis of the deposited data

How the results depend on the processing

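Of the 20 called members, 9 lower ones (Wnt3, Wnt6, Wnt7a, Wnt7b, Wnt10b, Fzd10, Dkk4, Lef1 and Axin2) and 1 higher one (Wnt5a) were called in the same direction under all 12 alternatives. Over the 34 members, 363 of 406 values under an alternative stayed on the same side of the threshold and 9 changed sign, none of them called. The members' counts stood at 17 lower and 3 higher of 34 tested with a pseudocount of 0.1. With no filter they were 13 and 4 of 45 tested, and with TPM 20 and 4 of 39 tested. Scaling to the same median gave 6 higher partner genes in place of 3, and over all genes 1894 higher and 1623 lower, and quantile normalization gave 1917 lower. Leaving out 1 library gave 9 to 18 members lower and 1 to 4 higher, 15 to 25 partners lower and 0 to 3 higher, and 804 to 3226 lower and 542 to 1160 higher genes in all. The low ends came without a control: without Skiv2l ctl replicate 1, 11 members were lower and 2 higher (1024 and 574 of all genes), and without replicate 2, 9 and 1 (804 and 542). The group left with 1 library was then assumed to vary like the other. Skiv2l ranged from -1.08 to -0.77. The sign changed for Dkk3 with TPM (-0.022) and on leaving out a library (-0.11 to 0.16), for Lrp5 with median scaling (0.13) and a library left out (-0.21 to 0.048), for Wnt10a with median scaling (0.013), and for Fzd5 (-0.016 to 0.28) and Fzd6 (-0.0077 to 0.14) with a library left out. The cause was not tested.

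The replicate numbers link no animals, since the pups differ, and deviations of same-numbered libraries correlated at -0.08. With a replicate block, 19 members were lower and 3 higher, and over all genes 3393 and 1264. The 2 added calls were Wnt2b (adjusted p = 0.0216) and Fzd7 (0.0200). FPKM carry no count of fragments, and how far depth limits members near 1 FPKM, such as Wnt5a and Dkk4, was not tested. The deficient Dkk4 values, 0.254 and 0.0767 FPKM, both lie under the 0.5 FPKM filter, so its 15.6-fold ratio rests on values near the floor. Under that filter Dkk4 entered the test through its control values alone, and it is counted among the lower members above.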

Other observations

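Transcripts on the opposite strand overlapped exons of several members, and since it is not known whether the counting used strand, reads of the gene and of its partner cannot be told apart. Gm43352, opposite Lef1, was read at 1.20 and 0.888 FPKM in the controls and at 0.357 and 0.294 FPKM in the deficient libraries, and AU022754, opposite Wnt7b, at 1.78 and 1.53 FPKM against 1.05 and 0.449 FPKM. Gm2670, opposite Wnt5a, was read at 0.0795 and 0.0972 FPKM against 0.528 and 0.333 FPKM. Each lay on the same side as the member it overlaps, at a lower FPKM. In all, 10 of the 46 members shared exon positions with another gene, and Wnt4 alone had more than 1% of its 75-base stretches in another gene (1.24%).

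Beside Wnt6 and Wnt10a, 3 other pairs of ligand genes lie side by side. Wnt3a and Wnt9a, 16.2 kb apart on opposite strands of chromosome 11, measured 5.29, 5.36, 2.83 and 3.57 FPKM and 0.0523, 0.0416, 0.374 and 0.463 FPKM in control 1, control 2 and the deficient libraries. Wnt9b and Wnt3, 24.3 kb apart on the same chromosome, stood under 0.5 FPKM and at 5.76 to 22.3 FPKM. Wnt10b and Wnt1, 11.7 kb apart on chromosome 15, stood at 14.9 to 40.9 FPKM and at or under 0.0142 FPKM. The pairs were compared by value only.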
